A study of Mus musculus with 6 samples.

Results

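Replication-dependent histone genes and 6 histone variant genes were followed in YUMM3.3 melanoma tumors from mice given Rigosertib (RGS) or vehicle. The replication-dependent members were the protein-coding genes of the count table whose names begin with Hist1h, Hist2h, Hist3h or Hist4h, and the variants were H2afx, H2afz, H2afv, H3f3a, H3f3b and H1f0. The rule gave 66 of the 40166 genes in the table, 60 replication-dependent and 6 variant. YUMM3.3 is a mouse melanoma line with mutant BRAF, and tumors of this single line were grown under the skin of C57BL/6 mice. RGS is a small molecule that mimics RAS. The goal stated with the deposited data was to find gene expression induced by RGS. Bulk RNA was sequenced from 3 tumors of mice given water, the vehicle, and from 3 tumors of mice given RGS at 300 mg/kg, in each case by oral gavage 5 days a week for 17 days. The mice were young adults of either sex by the study's methods, and the labels give no age or sex for these 6 tumors. Tumors are named here by the numbers in their labels, vehicle 7, 8 and 9 and RGS 10, 11 and 12. The labels do not say whether each tumor came from its own mouse, so p-values measure the spread between these tumors.

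Histones are the proteins around which DNA is wound. Each core particle holds H2A, H2B, H3 and H4, and the linker histone H1 binds between particles. Replication-dependent genes supply histones for newly copied DNA during S phase, and their mRNAs end in a conserved hairpin, bound by Slbp, in place of a poly(A) tail. Variant genes such as H2afz and H3f3b have introns, make polyadenylated mRNA and are read throughout the cell cycle, which lets nucleosomes be replaced outside S phase.

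Of the 6 variants, H2afz, H3f3a, H2afx and H3f3b fell with RGS, by 0.65 to 1.27 on the log2 scale. For each of them the values of the 3 RGS tumors lay below all 3 vehicle tumors, and the share of all genes that separate in this way was not counted. Of all genes tested, 16.5% were called lower and 16.3% higher. Whether the variants and the replication-dependent genes differed in their response was not tested. Of the 60 replication-dependent genes, 49 had a count in any tumor, 15 had enough counts to be tested, and Hist1h2ae, with 37 counts in all, was the member called. It entered the test through the RGS group alone. The linker histone gene Hist1h1c held most of the counts of the whole replication-dependent set, and its values with RGS were also below those with vehicle without overlap, without passing the test (log2 fold change -0.39). In bulk tumors, fewer cells of a type and less RNA per cell cannot be told apart.

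The vehicle libraries held 32555494, 26652104 and 22793087 counts in genes, and the RGS libraries 21617368, 13837932 and 17768758. Every vehicle library was therefore deeper than every RGS library. Levels are given as CPM (counts scaled to a common library size), with TMM factors, which adjust library sizes for differences in composition. A gene with no count in a library could have been present at up to the level of 3 counts, which was 0.0856, 0.107 and 0.129 CPM in vehicle 7, 8 and 9 and 0.142, 0.226 and 0.184 CPM in RGS 10, 11 and 12. These floors, and all intervals given below, cover counting error only. Of the 60 replication-dependent genes, 25, 28 and 19 had a count in the vehicle libraries and 23, 23 and 25 in the RGS libraries. After random thinning of every library to the size of the smallest, chosen after seeing the data, the numbers were 22, 23 and 18 against 21, 23 and 25.

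The members lie in 4 places in the genome. The Hist1 cluster holds 52 of the 60, between 21715763 and 23764406 on chromosome 13 (mm10), and held 13446 of the 14486 counts of the replication-dependent set. The Hist2 genes are 5 members on chromosome 3 with 781 counts, Hist3h2a and Hist3h2ba on chromosome 11 had 230, and Hist4h4 on chromosome 6 had 29. The Hist1 share of library counts was 0.0108% ± 0.00137 (SD, n = 3) with vehicle and 0.00899% ± 0.00121 with RGS, and the groups overlapped. The shares of the Hist2, Hist3 and Hist4 genes also overlapped between the groups.

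The hairpin was sought in the gene models of GENCODE M21 (GRCm38), in the transcript after the stop codon, as a stem of 6 pairs opening with GG and a loop of 4 bases. It was found in 43 of the 60 replication-dependent members and in the variant H2afx, starting 21 to 54 bases after the stop codon. The 44 hairpins had 9 different forms, and 23 members shared the same 16 bases, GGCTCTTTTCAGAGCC. The form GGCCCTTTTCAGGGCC was found in 7 members, all of them H4 genes, and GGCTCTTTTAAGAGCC in 6. The sequences shown are those of members whose counts are described further on, with the hairpin in capitals. All lie in the part of the mRNA after the stop codon. On GRCm38 they are at chr13:23739507-23739532 on the plus strand for Hist1h1c, chr13:23621777-23621802 on the minus strand for Hist1h1e, chr13:23570663-23570688 on the minus strand for Hist1h2ae, chr3:96238480-96238505 on the minus strand for Hist2h3c2, chr13:22040961-22040986 on the minus strand for Hist1h4i, and chr9:44335235-44335260 on the plus strand for H2afx.
Hist1h1c: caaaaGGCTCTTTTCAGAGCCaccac
Hist1h1e: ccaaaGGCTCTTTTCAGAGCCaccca
Hist1h2ae: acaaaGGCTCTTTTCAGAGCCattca
Hist2h3c2: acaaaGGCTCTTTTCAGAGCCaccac
Hist1h4i: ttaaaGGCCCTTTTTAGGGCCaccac
H2afx: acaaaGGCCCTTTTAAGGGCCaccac

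The H1, H2A and H3 members shown share the same hairpin, while Hist1h4i and the variant H2afx each have another form with a matching stem. No hairpin of this form was found in the models of Hist1h2bc, Hist2h2be, H2afz, H2afv, H3f3a, H3f3b or H1f0. A model without one can also be a model that stops early, since 10 of the replication-dependent models end with the coding part. A poly(A) signal (AATAAA or ATTAAA) lay in the last 40 bases of a model in 16 of the 60 replication-dependent members and in 5 of the 6 variants, H3f3b being the one without.

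Members were grouped by whether the model runs on past the hairpin. Levels varied among members with a run of any length, and a relation to its length was not tested. Hist1h1d, with 4884 bases past the hairpin, was at 0.0575 CPM per kilobase, and Hist1h2bg, with 155 bases, at 1.399. In 21 replication-dependent members the model ended within 100 bases of the hairpin, and these held 138 counts, 0.953% of the set, with a median level of 0.0410 CPM per kilobase of gene length. In 22 members the model went on for 100 bases or more, and these held 11565 counts, 79.8% of the set, with a median of 0.163 CPM per kilobase. Hist1h1c alone held 10169 of those counts. All 22 of the latter had a count in some tumor, against 16 of the 21 former. A further 4 members had no hairpin and 100 bases or more after the stop codon, and they held 2677 counts, 18.5%, all in Hist1h2bc and Hist2h2be. The last 13 had no hairpin and a short end, and held 106 counts, 0.732%. All 6 variants had long ends. These are descriptions of the models and counts, since a longer model also gives reads more room to be counted, and how the libraries were prepared, including any selection for poly(A) tails, is not given in the sources used here.

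**Figure D1:**
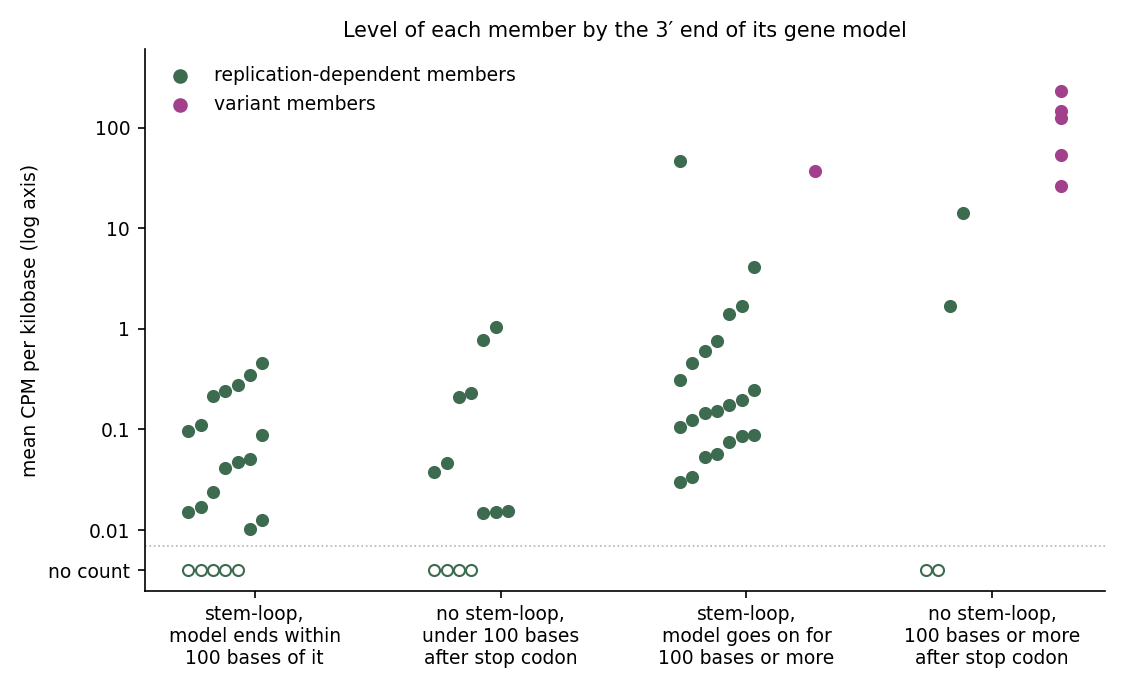
Mean CPM per kilobase over the 6 tumors (log axis) of each of the 66 members, grouped by the end of the gene model, with open circles for the 11 members with no count in any tumor. The 6 variants lie between 26.45 and 231 CPM per kilobase, and Hist1h1c, at 46.7, is the replication-dependent member among them.

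Other RNAs known to lack a usual poly(A) tail were looked up as well. Of 13 such RNAs, 9 were in the table. Rpph1, Rny3 and Rn7s2 had no count in any tumor, and Rn7sk, the RNA that holds the elongation factor P-TEFb inactive, had a level of at most 0.387 CPM in any tumor. Terc reached 0.559 and Rnu12 0.516 CPM, and Rny1 had 1 count in all. Rn7sk, Terc and Rnu12 were all highest in vehicle 9, which also had the largest shares of counts in rRNA and miRNA genes of the 6 libraries. Malat1 and Neat1, nuclear RNAs with ends of an unusual kind, were the ones abundant enough to be tested. Malat1 was at 374.6, 406 and 495 CPM with vehicle and 524, 530.0 and 611 with RGS (log2 fold change 0.38, SE 0.16, adjusted p = 0.0657). Neat1 was at 353, 366 and 372 CPM with vehicle and 265, 313 and 278 with RGS (log2 fold change -0.35, SE 0.15, adjusted p = 0.0743). The groups did not overlap for either RNA, and neither passed the test.

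Groups were compared by the quasi-likelihood test of edgeR for the 15355 genes whose median count reached 5 in either group. The p-values were adjusted by the Benjamini-Hochberg method, and a gene was called at an adjusted p under 0.05. Of the 15 replication-dependent members tested, 0 were called lower and 1 higher, against 16.5% and 16.3% of all genes tested. The other 45 of the 60 did not reach the count minimum and were left out. At an unadjusted p under 0.05, 1 member was lower and 2 were higher. DESeq2 called 0 lower and 2 higher, and limma 0 in either direction. Of the 15, 9 passed the count minimum in both groups, 4 through vehicle alone and 2 through RGS alone, so the tested members are not a sample of the set. Of the 6 variants, 4 were called lower and 0 higher, and the same 4 were called by DESeq2 and by limma, with 0 higher by either tool. H2afv and H1f0 did not reach an unadjusted p of 0.05 in either direction.

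**Figure D2:**
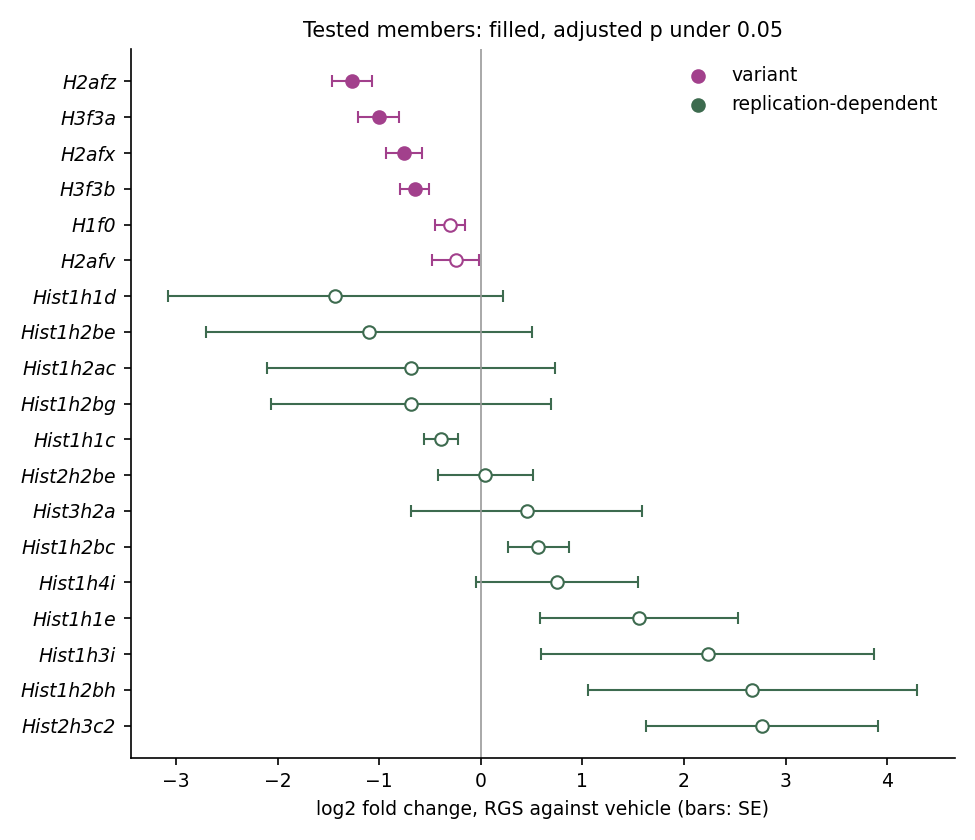
Log2 fold change, RGS against vehicle, of tested members, with bars for the SE and filled points for an adjusted p under 0.05. Hist1h2ae and Hist3h2ba are left out because all 3 tumors of a group had no count, and the SEs of the replication-dependent members other than Hist1h1c exceed those of every variant.

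Among the H1 genes, Hist1h1c (ENSMUSG00000036181.2, chr13:23738808-23740367 in mm10) was the most counted member of the replication-dependent set. It encodes a linker histone found in most tissues, and its mRNA is known to be polyadenylated in some cells. Its level was 72.6, 79.7 and 95.6 CPM in the vehicle tumors and 57.6, 64.0 and 67.4 CPM in the RGS tumors. All 3 RGS tumors were below all 3 vehicle tumors, and the difference did not pass the test (log2 fold change -0.39, SE 0.17, adjusted p = 0.0849). The call depended on vehicle 7 and on the scaling: without vehicle 7 the log2 fold change was -0.48 with an adjusted p of 0.0255, and with library size alone in place of TMM factors it was -0.53 with an adjusted p of 0.0233. Over all alternatives the adjusted p ran from 0.0233 to 0.34. The model of Hist1h1c goes on for 840 bases past its hairpin, ends with a poly(A) signal, and shares no stretch of 150 bases, the read length, with the transcript of any other gene.

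Hist1h1e, another widely used H1 gene, had a mean level of 0.603 CPM per kilobase against 46.7 for Hist1h1c. It had 23, 13 and 15 counts with vehicle and 35, 27 and 25 with RGS. The RGS tumors were the higher ones without overlap, in the direction opposite to Hist1h1c, and the difference did not pass the test (log2 fold change 1.55, SE 0.97, adjusted p = 0.237). Its exons overlap those of Hist1h2be and Gm11398 on the same strand, and 19.5% of its windows of 150 bases occur in a transcript of either gene, so its counts are uncertain. Hist1h1d had 1, 38 and 12 counts with vehicle and 14, 0 and 0 with RGS, with the groups overlapping. The 6 H1 genes together took 0.00878% ± 0.00101 of library counts with vehicle and 0.00619% ± 0.000282 with RGS, without overlap, and Hist1h1c held most of these counts.

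Among the H2A genes, Hist1h2ae (ENSMUSG00000069272.6, chr13:23570517-23571220) had no count in any vehicle tumor and 25, 0 and 12 counts in RGS 10, 11 and 12. RGS 11 had no count, like the vehicle tumors, which bounds its level at 0.226 CPM and does not show that it equals theirs. The gene met the count minimum in the RGS group alone, so it was tested only because of the group in which it is higher. The mean RGS level of 0.639 CPM was at least 5.96-fold higher than the mean vehicle floor of 0.107 CPM, with floors of 3 counts per library, and the adjusted p was 0.0235. That bound rests on RGS 10 and RGS 12, of which RGS 10 held the larger part, and it would be lower without RGS 10. The call was lost with limma (adjusted p = 0.0582) and without vehicle 7, vehicle 8, vehicle 9, RGS 10 or RGS 12, where the adjusted p was 0.0938, 0.119, 0.0774, 0.133 and 0.0864. Over all alternatives it ran from 0.0159 to 0.133. Of its windows of 150 bases, 24.5% also occur in other H2A transcripts or in Gm11336, so reads could be shared among these copies.

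Hist3h2a, the H2A gene with the highest level per kilobase, had 41, 83 and 0 counts with vehicle and 47, 41 and 6 with RGS. The groups overlapped, each with a tumor of few or no counts, and the log2 fold change was 0.45 (SE 1.14, adjusted p = 0.798). It turned to -0.12 without vehicle 9 and to -0.09 without RGS 11. Hist3h2a shares exon bases with Trim17 on the same strand, 28.04% of its windows occur in that gene, and its counts may include reads of Trim17. Hist1h2ad had 3, 42 and 0 counts with vehicle and 0 in every RGS tumor, too few for the test. Nearly all of them came from vehicle 8. Together the 15 H2A genes took 0.000300% ± 0.000244 of library counts with vehicle and 0.000304% ± 0.000149 with RGS. Vehicle 8, with 154 H2A counts against 65 and 28 in vehicle 7 and 9, raised the vehicle mean, so the closeness of the means rests on that tumor.

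The H2B genes held the other abundant members. Hist1h2bc, whose mRNA is known to occur in a polyadenylated form, was at 10.2, 16.75 and 12.8 CPM with vehicle and 12.4, 18.8 and 27.7 CPM with RGS. RGS 12 was the highest tumor and the groups overlapped (log2 fold change 0.57, SE 0.30, adjusted p = 0.157). Without RGS 12 the log2 fold change was 0.20 (adjusted p = 0.66), and without RGS 10 it was 0.81 (adjusted p = 0.0573). Hist2h2be was at 3.94, 5.03 and 4.04 CPM with vehicle and 3.03, 5.65 and 4.77 CPM with RGS. RGS 10 was below the vehicle range, RGS 11 above it and RGS 12 within it, with a log2 fold change of 0.04 (SE 0.47, adjusted p = 0.952) whose sign changed with the scaling and with the tumor left out. Of the windows of Hist1h2bc, 17.4% also occur in other H2B transcripts, while Hist2h2be shares none. Hist1h2bg had 22, 15 and 47 counts against 0, 25 and 2, and Hist1h2bh had 5, 1 and 0 against 5, 10 and 5. Neither passed the test. Hist1h2bg met the count minimum in the vehicle group alone and Hist1h2bh in the RGS group alone. Each was therefore tested only because of the group in which it is higher, and nothing is read from their opposite directions.

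For the H3 genes the most counted member was Hist2h3c2, with 1, 18 and 15 counts under vehicle and 5, 40 and 93 under RGS. RGS 11 and RGS 12 were above every vehicle tumor and RGS 10 was within the vehicle range (log2 fold change 2.76, SE 1.14, adjusted p = 0.0709). It was called with DESeq2 (adjusted p = 0.0282), with no filter (0.0333), with a gene length offset (0.0443) and without RGS 10 (log2 fold change 3.31, adjusted p = 0.026), and over all alternatives its adjusted p ran from 0.026 to 0.366. Of its windows, 59.4% also occur in Hist2h3b, Hist2h3c1 or Gm20634, so the counts could belong to more than 1 gene. Hist1h3i had 5, 5 and 0 counts against 23, 0 and 8, with the groups overlapping (log2 fold change 2.24, SE 1.64, adjusted p = 0.32), and without RGS 10 the log2 fold change was 1.17 (adjusted p = 0.726). The 10 H3 genes together held 318 counts, with 0.000119% ± 3.89e-05 of library counts with vehicle and 0.000421% ± 0.000243 with RGS. All 3 RGS tumors were above the vehicle tumors in this sum. Hist2h3c2 gave 40 of the 53 H3 counts of RGS 11 and 93 of the 121 of RGS 12, and Hist1h3i gave 23 of the 43 of RGS 10, so the sum rests on few genes and on shared sequence.

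Among the H4 genes, Hist1h4i was at 0.628, 0.570 and 5.55 CPM with vehicle and 1.61, 6.25 and 3.49 CPM with RGS. Vehicle 9 stood far above the other vehicle tumors and just below RGS 11, the highest. Vehicle 9 is also the library with the largest rRNA and miRNA shares, and a link to Hist1h4i was not tested. For Hist1h4i the log2 fold change was 0.75 (SE 0.80, adjusted p = 0.506). Without vehicle 9 it was 2.64 with an adjusted p of 0.0239, and over all alternatives the adjusted p ran from 0.0239 to 0.904. Hist1h4k had 3 counts in vehicle 8 and 30 in RGS 12 and none in the other tumors, so a single tumor held nearly all of them. The 13 H4 genes took 0.000282% ± 0.000337 of library counts with vehicle and 0.000600% ± 0.000288 with RGS, and the groups overlapped. Vehicle 9, with 153 H4 counts against 25 and 26 in vehicle 7 and 8, raised the vehicle mean. The overlap rests on that tumor.

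**Figure D3:**
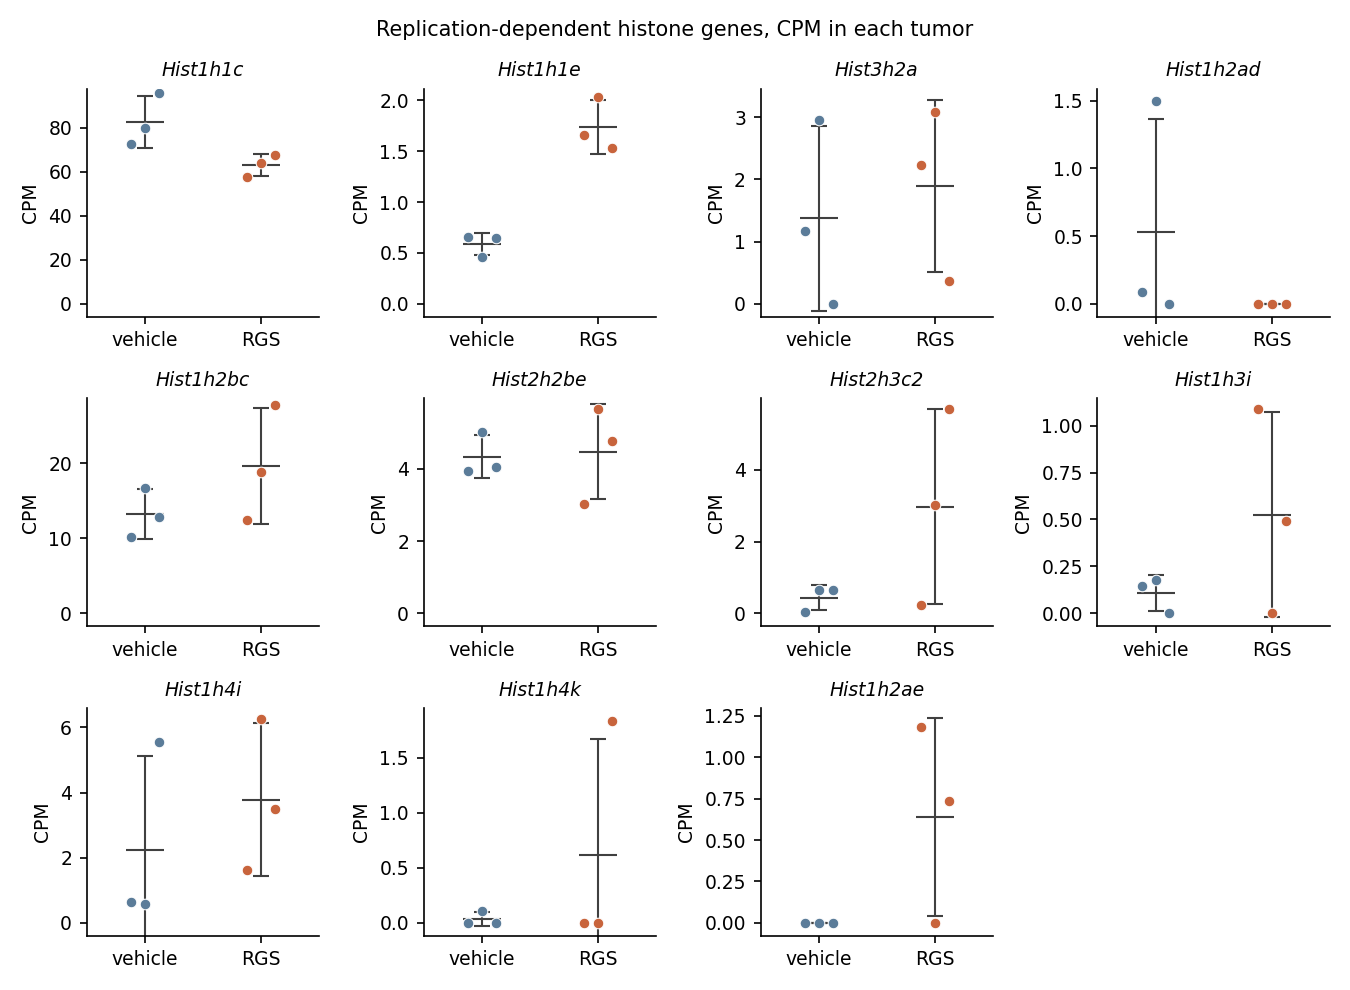
CPM in each tumor of the named replication-dependent genes, with points for tumors and bars for the mean and SD of 3 tumors (bars that would pass below the axis end there). The groups separate for Hist1h1c, with RGS lower, and for Hist1h1e, with RGS higher, and overlap in the other panels.

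Summed over its 60 genes, the replication-dependent set took 0.00998% of the counts of vehicle 7 (95% Clopper-Pearson interval 0.00964 to 0.0103), 0.0118% of vehicle 8 (0.0114 to 0.01225) and 0.0127% of vehicle 9 (0.0122 to 0.0132). It took 0.00821% of RGS 10 (0.00783 to 0.00860), 0.0106% of RGS 11 (0.0101 to 0.0112) and 0.0110% of RGS 12 (0.0105 to 0.0115). RGS 10 was the lowest and RGS 11 and RGS 12 lay within the vehicle range. The 3 most counted genes, Hist1h1c, Hist1h2bc and Hist2h2be, made up 90.3% to 93.5% of these counts with vehicle and 80.0% to 86.9% with RGS. The remaining 57 genes took 0.00101% ± 0.00031 of library counts with vehicle and 0.00166% ± 0.000531 with RGS, and the groups overlapped. The other members were scarce: 21 of the 49 with a count had at most 10 in all 6 tumors together, 6 had a count in every tumor, and the 11 with none were 1 H1, 4 H2A, 4 H2B and 2 H4 genes. No member left untested had over 45 counts in all.

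The 6 variants held most of the counts of the 66 members. H3f3b and H3f3a encode the same protein, H3.3, which replaces H3 outside replication. H3f3b (ENSMUSG00000016559.14) was at 779.9, 854 and 887 CPM in the vehicle tumors and 542, 499.6 and 563 CPM in the RGS tumors. All RGS tumors were below all vehicle tumors, and the gene fell (log2 fold change -0.65, SE 0.15, adjusted p = 0.00196). H3f3a was at 161, 268 and 320.4 CPM with vehicle and 139, 114 and 120 CPM with RGS. It fell as well, with vehicle 7 the nearest to the RGS tumors (log2 fold change -1.004, SE 0.20, adjusted p = 0.000855). Counts on H3f3a are less certain, because genes on the opposite strand overlap 798 of its exon bases and the strand setting of the counting is not given in the sources used here. H3f3b was at 231 CPM per kilobase and H3f3a at 53.4.

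H2afz encodes H2A.Z, a variant placed at promoters and next to nucleosome-free regions. H2afz (ENSMUSG00000037894.13) was at 248, 374 and 477.5 CPM with vehicle and 162.5, 133.5 and 159 CPM with RGS, the largest fold change among the variants (log2 fold change -1.27, SE 0.20, adjusted p = 6.92e-05). The vehicle tumors were spread widely and every RGS tumor was below the lowest of them. Of its windows, 25.9% also occur in the pseudogene Gm8203. H2afv, which encodes another form of H2A.Z, was at 30.1, 50.3 and 60.3 CPM with vehicle and 32.5, 43.8 and 42.2 CPM with RGS. The groups overlapped and the difference did not pass the test (log2 fold change -0.25, SE 0.23, adjusted p = 0.439). The value depended on single tumors, at -0.49 without vehicle 7 (adjusted p = 0.0511) and -0.02 without vehicle 9 (adjusted p = 0.961). Whether H2afz and H2afv differed in their response was not tested.

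H2afx encodes H2A.X, which is phosphorylated around DNA breaks, and its gene is known to give both a hairpin-ended and a polyadenylated mRNA. It was at 57.9, 62.75 and 74.25 CPM with vehicle and 40.4, 39.6 and 35.1 CPM with RGS. All RGS tumors were below the vehicle tumors and the gene fell (log2 fold change -0.76, SE 0.18, adjusted p = 0.00287). H1f0 encodes H1.0, a linker histone known from cells that have left the cell cycle, and was at 251, 308 and 293 CPM with vehicle and 222, 229 and 240.1 CPM with RGS. The groups did not overlap, and the difference did not pass the test (log2 fold change -0.30, SE 0.15, adjusted p = 0.128). It was called without vehicle 7 (adjusted p = 0.0192) and with library size alone (adjusted p = 0.0307), and its adjusted p ran from 0.0192 to 0.455 over all alternatives.

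**Figure D4:**
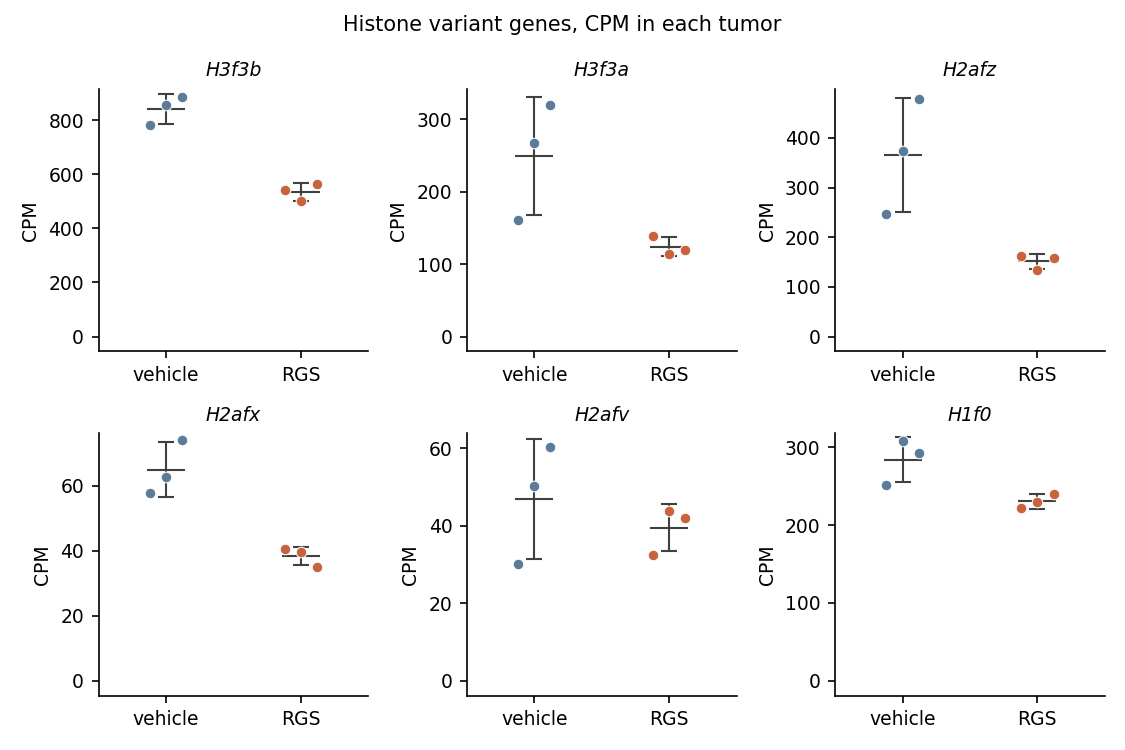
CPM of the 6 variant genes in each tumor, with points for tumors and bars for the mean and SD of 3 tumors. The RGS tumors lie below the vehicle tumors for every gene but H2afv. The share of all genes that separate in this way was not counted.

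The 6 variants together took 0.164% of the counts of vehicle 7 (95% Clopper-Pearson interval 0.163 to 0.166), 0.202% of vehicle 8 (0.2 to 0.2035) and 0.2155% of vehicle 9 (0.214 to 0.217). They took 0.111% of RGS 10 (0.1099 to 0.113), 0.102% of RGS 11 (0.09996 to 0.103) and 0.107% of RGS 12 (0.105 to 0.108). The RGS mean was 0.1065% ± 0.00483 against 0.194% ± 0.0265 with vehicle, and the groups did not overlap. For each count on a replication-dependent gene there were 16.5, 17.05 and 17.0 on a variant in the vehicle tumors and 13.6, 9.59 and 9.71 in the RGS tumors. Within the 66 members, H3f3a and H3f3b held at least 98.927% of the H3 counts in every tumor, H2afx, H2afz and H2afv at least 97.958% of the H2A counts, and H1f0 between 75.18% and 79.05% of the H1 counts. Variants outside the rule, such as Cenpa and H2afy, are not in these totals, and the shares of counts are not corrected for gene length.

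Promoters were taken from RefSeq (GRCm38.p6), in which an entry was matched for 55 of the 60 replication-dependent members and 5 of the 6 variants. No entry was matched for H2afx, Hist1h2bc, Hist1h3a, Hist1h3f, Hist2h2be and Hist2h4, which does not show that RefSeq lacks them. The 250 bases before the start were searched on both strands for TATAAA (the TATA box), CCAAT (the CCAAT box), ATTTGCAT (the octamer), AAACACA (known from H1 promoters), GGGCGG (a GC box) and TTTGAA (known from cell cycle genes), and matches of different motifs may share bases. CCAAT was found in 45 of the 55 replication-dependent promoters and in 33.8% of all 32851 promoters. By class it was in 6 of 6 H1, 15 of 15 H2A, 14 of 14 H2B, 7 of 8 H3 and 3 of 12 H4 promoters, and in 4 of 5 variant promoters. TATAAA was in 27 of the 55 and 1 of the 5 variants, against 12.4% of all promoters, and TTTGAA in 27 and 1, against 5252 of all 32851. ATTTGCAT was in 10 of the 55 and 1 of the 5, against 526 of all 32851, and all 10 were H2A or H2B genes. AAACACA was in 5 of 6 H1 promoters and 7 of the 55, against 6.25% of all, and GGGCGG in 17 of the 55 and 3 of the 5, against 32.7%. Members of a class are copies of each other, so these matches are not independent, and a match is a description of letters, not a binding site.

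The promoters of Hist1h1c, Hist1h1e and H2afz are shown because the first 2 are H1 genes with values in opposite directions and the last is the variant with the largest fold change. The stretches are chr13:23738557-23738806 on the plus strand for Hist1h1c, chr13:23622559-23622808 on the minus strand for Hist1h1e and chr3:137864237-137864486 on the plus strand for H2afz, and capitals mark matches of any of the 6 motifs.
Hist1h1c: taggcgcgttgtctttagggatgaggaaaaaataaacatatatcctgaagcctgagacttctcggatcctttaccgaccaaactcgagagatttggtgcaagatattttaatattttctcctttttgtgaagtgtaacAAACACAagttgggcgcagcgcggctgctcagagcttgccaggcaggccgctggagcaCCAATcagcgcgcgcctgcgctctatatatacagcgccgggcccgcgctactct
Hist1h1e: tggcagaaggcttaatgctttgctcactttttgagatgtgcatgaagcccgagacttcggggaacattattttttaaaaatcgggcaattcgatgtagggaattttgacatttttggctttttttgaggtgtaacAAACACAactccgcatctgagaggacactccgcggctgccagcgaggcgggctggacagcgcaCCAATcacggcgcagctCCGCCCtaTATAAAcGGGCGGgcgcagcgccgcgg
H2afz: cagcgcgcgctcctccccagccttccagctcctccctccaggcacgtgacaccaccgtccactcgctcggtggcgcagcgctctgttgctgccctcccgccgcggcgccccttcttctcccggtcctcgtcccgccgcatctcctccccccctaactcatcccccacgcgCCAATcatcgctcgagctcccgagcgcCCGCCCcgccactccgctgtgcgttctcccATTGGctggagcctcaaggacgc

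The pair of H1 promoters each held an AAACACA and a CCAAT, and the Hist1h1e promoter also held TATAAA and GGGCGG, which were not found in the Hist1h1c window. Only exact letters were searched, so the tatatata of the Hist1h1c window was not counted as a TATA box. The H2afz promoter held CCAAT 2 times and GGGCGG 1 time, and no AAACACA or TATAAA.

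Factors that make and remove replication-dependent histone mRNA were also compared. Of 18 such genes tested, 2 (11.1%) were called lower and 5 (27.8%) higher, against 16.5% and 16.3% of all genes, with a median log2 fold change of -0.26 against -0.05 for all genes. Npat, the coactivator that switches on histone genes in S phase, fell from 36.5, 32.0 and 28.8 CPM with vehicle to 18.75, 15.4 and 13.9 CPM with RGS (log2 fold change -1.01, adjusted p = 0.00163). Lsm11, a protein of the U7 particle that guides cleavage after the hairpin, fell from 21.5, 18.03 and 22.5 to 9.185, 12.05 and 12.3 CPM (log2 fold change -0.89, adjusted p = 0.0113). For both genes all RGS tumors were below all vehicle tumors. Slbp, which binds the hairpin, was at 46.0, 50.5 and 48.6 CPM with vehicle and 34.7, 40.9 and 36.3 CPM with RGS, without overlap and without passing the test (log2 fold change -0.37, adjusted p = 0.114, and 0.0387 with library size alone). Casp8ap2 (log2 fold change -0.29), Lsm10 (-0.22), Zfp473 (-1.25) and Eri1 (-0.05), which act in the same cleavage or in trimming the end, were not called, with adjusted p of 0.35 to 0.866. The value of Zfp473, which met the count minimum in the vehicle group alone, ran from -3.35 to -0.25 over the alternatives. The 5 called higher were Sympk, a scaffold of the cleavage complex (log2 fold change 0.88), the cap-binding genes Ncbp1 (0.57) and Ncbp2 (1.32), their partner Srrt (0.79) and Upf1, a helicase of mRNA decay (0.63), which all also serve other mRNAs. The choice of these 5 followed from their calls.

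Histone chaperones, which carry histones to DNA, had calls in both directions. Of 24 tested, 8 (33.3%) were called lower and 5 (20.8%) higher, against 16.5% and 16.3% of all genes, with a median log2 fold change of -0.16. The genes for CAF-1, which deposits H3 and H4 behind the replication fork, fell: Chaf1a by 1.07 on the log2 scale (adjusted p = 0.00143) and Chaf1b by 0.94 (adjusted p = 0.0193). Asf1b, which hands H3 and H4 to CAF-1 and is tied to dividing cells, fell by 0.84 (adjusted p = 0.0396), while its relative Asf1a was at 28.1 ± 3.0 CPM with vehicle and 33.0 ± 8.73 with RGS (adjusted p = 0.461). Chaf1b was not called without vehicle 8 (adjusted p = 0.109), RGS 10 (0.051) or RGS 11 (0.0547), and Asf1b was not called without vehicle 7 (0.109), vehicle 8 (0.161) or RGS 10 (0.135). Hira, which deposits H3.3 outside replication, rose from 14.4, 12.7 and 18.5 CPM to 23.6, 32.62 and 32.9 CPM (log2 fold change 0.97, adjusted p = 0.00402). Nasp, which keeps a reserve of H3 and H4, rose from 46.1, 46.4 and 40.5 CPM to 63.1, 83.1 and 78.9 CPM (log2 fold change 0.76, adjusted p = 0.00254). Hira and Nasp thus had RGS tumors above all vehicle tumors, while H3f3a and H3f3b, which encode the H3.3 that Hira deposits, fell. Among the partners of Hira, Ubn1 (log2 fold change 0.31, adjusted p = 0.235), Ubn2 (-0.06, adjusted p = 0.842) and Cabin1 (0.50, adjusted p = 0.0572) were not called. Daxx (log2 fold change 0.25) and Atrx (0.14), partners in H3.3 deposition at repeats, were not called.

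Genes of DNA replication and of division mark dividing cells, which make replication-dependent histones during S phase. The division markers are not specific to that phase. Of 36 replication genes tested, 24 (66.7%) were called lower, against 16.5% of all genes, and 12 were not called, with a median log2 fold change of -0.94. Ccne2, a cyclin whose kinase Cdk2 activates Npat, fell from 25.4, 36.6 and 42.1 CPM to 3.79, 5.05 and 3.98 CPM (log2 fold change -3.03, adjusted p = 1.47e-07). Cdk2 (-1.11, adjusted p = 0.00529) and the ribonucleotide reductase subunit Rrm2 (-1.37, adjusted p = 0.000117) fell too. Mcm2, a helicase subunit that also binds H3 and H4, fell by 0.62 (adjusted p = 0.0112), a call lost without vehicle 8 (adjusted p = 0.0863) or RGS 11 (adjusted p = 0.0666). The polymerase clamp gene Pcna was not called (log2 fold change -0.39, adjusted p = 0.0971), except without vehicle 7 (adjusted p = 0.00399) and with library size alone (0.0247). Ccne1, which encodes the same kind of cyclin as Ccne2 (log2 fold change -0.26), and E2f1 (0.06) were not called. Of 8 division markers, 7 (87.5%) were called lower, against 16.5% of all genes, and Plk1 was not called, with a median of -1.50. Those lower included Mki67 (log2 fold change -1.45, adjusted p = 1.36e-05) and Top2a (-1.22, adjusted p = 1.56e-05).

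**Figure D5:**
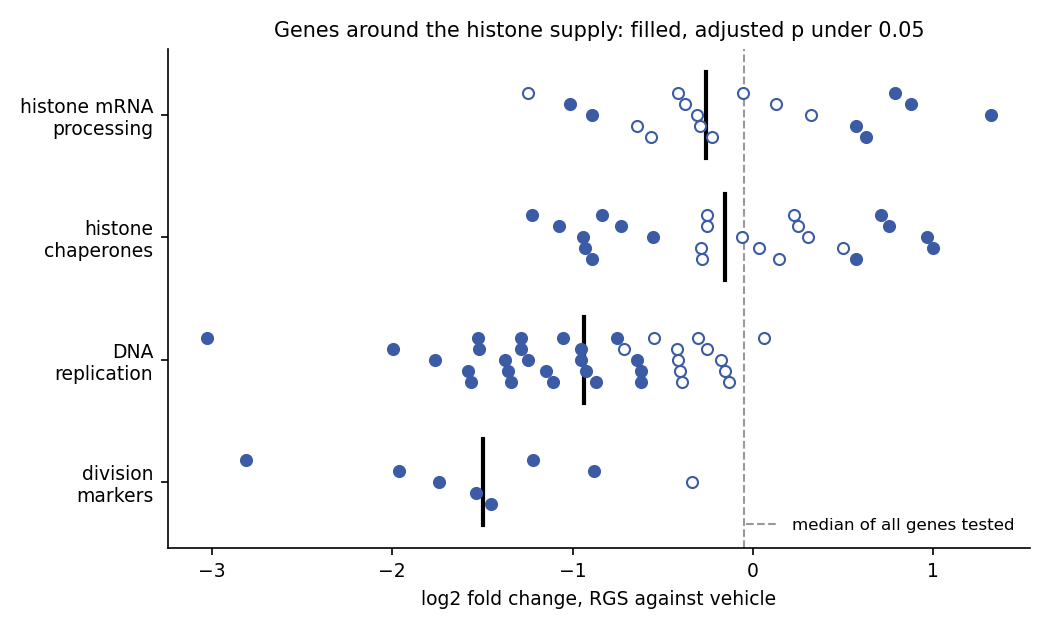
Log2 fold change, RGS against vehicle, of each tested gene of the 4 lists, with filled points for an adjusted p under 0.05, a black bar for the median of each list and a dashed line for the median of all genes tested. The medians are -0.26 for processing factors, -0.16 for chaperones, -0.94 for DNA replication and -1.50 for division.

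Of 7 further variant genes outside the rule, H1foo and H1fnt, known from germ cells, had no count, and 5 were tested. Cenpa, the H3 variant of centromeres, fell (log2 fold change -1.90, adjusted p = 8.39e-06), as did H2afy2 (-0.95, adjusted p = 0.0301), while H2afj rose (0.93, adjusted p = 0.00493). H2afy and H1fx, at log2 fold changes of 0.27 and 0.53, were not called. The median over these 5 was 0.27.

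Other features of the libraries moved with the groups, and their part in the histone results was not tested. Mitochondrial genes took 2.13% to 3.2% of counts with vehicle and 5.597% to 8.22% with RGS. Depth moved too, as given above. The background for the marker lists that follow is the 16.5% of all genes tested called lower and the 16.3% called higher. Of 3 leukocyte markers, Laptm5 and Cd53 were called higher, and their sum was 248, 188 and 187 CPM with vehicle and 1002, 1027 and 919.7 CPM with RGS, most of it Laptm5, while Ptprc, the defining marker, had no count in any tumor. Of 5 macrophage markers, Cd14 was called higher, with a sum of 70.9, 69.9 and 65.1 CPM against 83.0, 91.6 and 106 CPM, most of it Cd68, and Adgre1 at 0. Of 5 fibroblast markers, Col1a2, Col3a1 and Pdgfra were called lower and Dcn higher, with a sum of 582, 432 and 393 CPM against 296, 290.4 and 318 CPM, led by Col1a2.

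The other marker lists were scarce. The T cell list summed to 0, 0 and 0.602 CPM with vehicle and 1.42, 1.205 and 0.612 with RGS, with Trac, 1 of its 6 genes, called higher and Cd3d, Cd3e, Cd3g and Cd8a at 0. The dendritic list of 3 summed to 0.599, 0 and 0.0860 CPM with vehicle and 6.39, 7.01 and 10.8 with RGS, most of it Flt3, which was called higher, with Itgax at 0. Trac, Flt3 and Alas2 met the count minimum in the RGS group alone, so each was tested only because of the group in which it is higher. The endothelial list of 3 summed to 0.799, 0.962 and 0.731 CPM with vehicle and 6.72, 3.24 and 11.1 with RGS, led by Cdh5, which was called higher. The erythroid list of 3 held Alas2 at 0.710, 0 and 0.734 CPM with RGS and 0 with vehicle, called higher with groups that overlap at 0, and Hbb-bs and Hba-a1 at 0. B cell, NK, neutrophil, keratinocyte, skeletal muscle and adipocyte lists summed to at most 2.56 CPM in any tumor and held no called gene. The labels call these tumors melanoma, and of 7 melanocytic markers Tyr, Dct and Mlana had no count in any tumor. That list summed to 7.68, 5.17 and 4.945 CPM with vehicle and 10.5, 9.12 and 4.53 CPM with RGS, most of it Mitf, and held no called gene.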

How the data were processed

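RNA from 6 tumors was sequenced as paired-end reads of 150 bases. Per the labels, the submitters' processing notes name cutadapt 1.18, FastQC 0.11.7, STAR 2.7.1a, featureCounts 1.6.4 and mm10, and the authors deposited whole read counts per gene with no normalization. The strand setting, the handling of reads that fit several genes and the library kit are not given in the sources used here. Groups came from the labels. Genes whose median count reached 5 in either group were fitted with edgeR 4.0.16 (R 4.3.3) by its quasi-likelihood test with TMM factors, and p-values were adjusted by Benjamini-Hochberg over all genes tested. SEs are the log2 fold change over the root of F. The method was also run on simulated data with 200 changed genes. The outcome of that run is not given here and is not used as support. DESeq2 1.42.0, limma 3.58.1, other scalings and filters, a gene length offset, thinned counts and leaving out each tumor were the alternatives. Genes followed through the alternatives, where tested, were named by a rule. They were the variants, the 2 members of each class with the highest CPM per kilobase, called members, and chosen factors. Other genes, such as Hist1h1d, Hist1h2bg and Hist1h2bh, were described without alternatives. The members and lists were chosen with earlier results of these data known.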

Additional observations from a re-analysis of the deposited data

How the results depend on the processing

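The log2 fold changes of all 6 variants were below 0 under every alternative. With the adjusted p threshold alone, H2afx, H2afz, H3f3a and H3f3b were called lower in each. Asking in addition for a log2 fold change of at least 1 in size left 2 variants, and 1450 lower and 1168 higher genes of all tested. Leaving out each tumor in turn gave 4 to 5 variants lower, and library size only gave 5, with H1f0 added. The count of replication-dependent genes lower was 1 with library size only and 0 to 1 with a tumor left out (1, Hist1h1c, without vehicle 7). The count higher was 2 with DESeq2, no filter or a gene length offset, and 0 with limma, a median count of 20 or filterByExpr. The last 2 did not test Hist1h2ae. With a tumor left out it was 0 to 1 (0 without vehicle 7, vehicle 8 or RGS 12). Library size only moved the median of all genes from -0.05 to -0.19 and the lower genes from 50.3% to 62.8% of all calls. Without mitochondrial genes in the total the RGS share was 0.1145% for variants and 0.00666% for H1 genes, and as scaled CPM 0.112% and 0.00651%, still below vehicle. Directions turned, with no call, and the cause was not tested: Hist3h2a (-0.12 without vehicle 9, -0.09 without RGS 11, up to 1.698 without vehicle 8), Hist2h2be (-0.04769 with limma, -0.10 with library size only, -0.02 without vehicle 7, -0.17 without RGS 11, -0.03 without RGS 12, up to 0.2595 without RGS 10), Lsm10 (0.02022 with the length offset, 0.005516 without vehicle 9, down to -0.4913 without RGS 12), Eri1 (0.11 without vehicle 7, 0.08 without RGS 12, down to -0.2271 without RGS 10), Atrx (-0.041 with the length offset), Ccne1 (0.05695 without RGS 10, down to -0.6407 without RGS 11) and E2f1 (-0.07928 with library size only, -0.03736 without RGS 12, up to 0.1604 without RGS 10). Without changing sign or call, a tumor left out also moved the values of H2afv (-0.49 to -0.02), Hist1h2bc (0.20 without RGS 12), Hist2h3c2 (1.84 without RGS 12), Hist1h3i (1.17 without RGS 10), Hist1h4i (0.18 without RGS 11), Zfp473 (-0.25 without vehicle 7, -3.35 without RGS 12), Asf1a (0.05 without RGS 11, 0.42 without RGS 10), Atrx (0.05 without vehicle 8, 0.30 without vehicle 7) and Pcna (-0.24 without vehicle 9) by over 1.5 times. Of the alternatives for single named genes, 617 kept direction and side of the threshold, 14 lost a call, 12 gained one and 15 turned. Counts thinned to the smallest library, chosen after seeing the data, gave the same 4 variants and Hist1h2ae. No paired analysis was possible because the tumor numbers of the groups are not shared. The 45 members left out of the main test did not reach its count minimum, and 11 of them had no count. With no filter 49 replication-dependent members were tested, and those called were Hist1h2ae and Hist2h3c2.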
